A study of Mus musculus with 25 samples.

Results

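PHx 12 h against sham is the comparison of 5 mouse livers taken 12 hours after partial hepatectomy (PHx), the surgical removal of most of the liver, with 5 livers of sham operated mice, which underwent surgery without the resection. The 10 arrays were taken from the 25 arrays of the series by their labels, 5 titled PHx 12 Hrs and 5 titled Sham. The PHx 12 h group held male Balb/c mice, 8 weeks old, after 2/3 PHx. The sham group held mice of the same sex, strain and age, and its livers were taken 4 hours after surgery. A difference between the groups therefore holds PHx, 8 more hours since surgery and the time of day at which each liver was taken, which the labels do not give, and these cannot be told apart. Total RNA of 1 liver was hybridised to each single-colour (Cy3) NCode Mouse Non-coding RNA Microarray, which carries probes for mRNAs and for putative long noncoding RNAs (lncRNAs). The other 15 arrays, 5 each at 4, 36 and 72 hours after PHx, entered the fit to estimate the spread between mice, and the 4 h arrays served for a direct comparison of the 2 times.

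After PHx the remaining lobes grow until the lost mass is replaced. Resting hepatocytes first pass through a priming phase driven by cytokines of the innate immune system, then progress through G1 under growth factors, copy their DNA and divide, while the small remnant still has to carry the metabolic work of the whole organ. In mice, the time studied here lies after the early cytokine response and before the first wave of DNA synthesis. Many liver genes, among them those of the circadian clock and of drug metabolism, also rise and fall with the time of day and with feeding.

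The values are log2 of the deposited probe intensities. The medians of the linear intensities were 97.7 to 99.1 on the PHx 12 h arrays and 98.35 to 102.15 on the sham arrays, so that the arrays were on 1 scale. Across all probes, pairs of PHx 12 h arrays correlated with Pearson's r of 0.981 to 0.996, pairs of sham arrays with 0.988 to 0.995, and a PHx 12 h with a sham array with 0.958 to 0.981. The 7 measured hepatocyte markers had mean log2 intensities between 7.51 (Colec11) and 15.78 (prothrombin, F2) in PHx 12 h livers and between 9.04 (Bche) and 15.92 (F2) in sham livers. The brightest probes levelled off at a ceiling, the median of the 100 brightest probes of an array, which lay between 15.87 and 16.39, and all 5 sham values of F2 were within 0.2 of it. Genes could be named only for probes in the rows at hand of the study's table of clustered probes, with 1170 named mRNA genes and 224 probes for putative lncRNAs. These rows cover clusters 1 to 3 and a part of cluster 4, and probes of the later clusters, some of which the study describes as rising, carry no name here.

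Of 35979 probes, 5872 were higher and 5427 were lower in PHx 12 h livers than in sham livers at an adjusted p under 0.05 (limma, Benjamini-Hochberg adjustment over all probes), which is 16.3% and 15.1%. The changes were mostly small. The median log2 fold change was 0.46 among the higher and -0.54 among the lower probes, and at least 2-fold differences were found for 607 higher and 1017 lower probes. The 5 PHx 12 h arrays all lay above the 5 sham arrays for 10.4% of all probes and all below them for 9.79%. The named genes were less balanced, as 126 of 1170 were higher (10.8%) and 584 were lower (49.9%), with a median log2 fold change of -0.30. The study had chosen these genes for change on the same arrays, clusters 2 and 3 of its table held no probe that rose here, and rising clusters are among those left without names, so their direction and their balance are not independent evidence. Each count of a gene list below is to be read against these shares, no list was tested as a set, and a few genes stand in more than 1 list. Only 3 of the 50 largest rises and 2 of the 50 largest falls over all probes fell on probes of that table, so most of the strongest responses on the array carry no gene name here.

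The antimicrobial lectins Reg3b and Reg3g had the largest rises of all named genes. Reg3b encodes a secreted C-type lectin that is also known as pancreatitis-associated protein, and its log2 intensity was 11.61, 12.08, 12.70, 11.89 and 12.004 in PHx 12 h livers, against 5.98, 6.07, 6.95, 7.33 and 6.24 in sham livers. Every PHx 12 h liver lay far above every sham liver, and the mean difference was 5.54 (SE 0.37, limma adjusted p = 5e-11), a 46.6-fold rise. Its neighbour on chromosome 6, Reg3g, encodes a lectin that kills Gram-positive bacteria, and its log2 intensity was 10.003, 9.80, 9.33, 7.78 and 9.10 in PHx 12 h livers, against 6.17, 6.36, 6.97, 6.85 and 6.43 in sham livers. PHx 12 h liver 4 was the lowest of its group and still above all sham livers. The log2 fold change of Reg3g was 2.65 (SE 0.29, limma adjusted p = 1.18e-07). Compared directly with livers taken 4 hours after PHx, Reg3b was higher by 3.56 and Reg3g by 2.37 on the log2 scale (limma adjusted p = 4.81e-08 and 5.67e-07). The 2 genes are close relatives, and how far the probe of one reads the RNA of the other was not tested.

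The promoters of both genes are shown because the pair rose together and because STAT3, the transcription factor activated by interleukin-6 in the priming phase, binds elements of the form TTCNNNGAA. The 250 bases before each start site, read from RefSeq (GRCm38.p6), are given from 5′ to 3′ with a match to this motif in capitals.
Reg3b (chr6:78370635-78370884, plus strand): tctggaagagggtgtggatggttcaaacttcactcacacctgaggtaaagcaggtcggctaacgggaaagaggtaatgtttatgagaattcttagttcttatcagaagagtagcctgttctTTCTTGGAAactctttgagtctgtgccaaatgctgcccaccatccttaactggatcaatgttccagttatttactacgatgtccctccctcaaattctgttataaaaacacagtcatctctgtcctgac
Reg3g (chr6:78468875-78469124, minus strand): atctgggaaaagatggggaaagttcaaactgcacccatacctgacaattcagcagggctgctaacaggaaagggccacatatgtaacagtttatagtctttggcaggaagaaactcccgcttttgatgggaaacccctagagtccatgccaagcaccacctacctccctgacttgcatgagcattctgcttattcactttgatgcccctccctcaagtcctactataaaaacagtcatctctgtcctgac
When aligned end to end, the 2 promoters had the same base in 175 of 254 columns (68.9%). That of Reg3b held 1 match, 129 bases before the start site, and that of Reg3g held none. The same motif, which reads alike on both strands, was found in 7.02% of 32851 RefSeq mouse promoters of this length, so a match describes the sequence and is no evidence of binding.

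The other 3 measured genes of the acute phase and antimicrobial list did not move with the lectins. Leap2, a hepatic antimicrobial peptide that also acts as an antagonist of the ghrelin receptor, fell by 1.07 on the log2 scale, with 14.66 ± 0.22 in PHx 12 h livers and 15.73 ± 0.27 in sham livers (SD, n = 5 each, limma adjusted p = 3.22e-05), with 3 of the sham values within 0.2 of the ceiling. The acute phase proteins Lbp, which carries bacterial lipopolysaccharide, and Crp had log2 fold changes of -0.37 and -0.18 and did not pass (limma adjusted p = 0.151 and 0.313). In all, 2 of these 5 genes rose and 1 fell.

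Of 14 listed genes of the circadian clock only 3 carried a name here, and named genes had been chosen for change on these arrays. All 3 changed, and in opposite directions. Arntl, which encodes the activator BMAL1 of the clock, had log2 intensities of 9.44, 8.73, 9.26, 9.42 and 9.41 in PHx 12 h livers, against 7.26, 7.54, 7.49, 7.21 and 8.43 in sham livers. Sham liver 5 was well above the other sham livers and PHx 12 h liver 2 well below the others of its group, and the groups still did not overlap. The log2 fold change was 1.67 (SE 0.19, limma adjusted p = 2.34e-07). Cry1, a repressor of BMAL1 that is at its height when Arntl rises again, had log2 intensities of 10.56, 10.70, 10.43, 9.99 and 10.31 in PHx 12 h livers, against 8.95, 9.47, 9.25, 8.96 and 9.43 in sham livers. It was higher in every PHx 12 h liver than in any sham liver, with a log2 fold change of 1.18 (SE 0.17, limma adjusted p = 3.74e-06). Per3, which belongs to the period proteins of the negative limb, had log2 intensities of 5.76, 5.77, 5.68, 5.84 and 5.66 in PHx 12 h livers, against 6.80, 6.77, 6.03, 6.48 and 6.92 in sham livers. It lay lower in all PHx 12 h livers, where it was below 6.09, the mean level under which the dimmest 30% of probes lay, and it fell by 0.86 (SE 0.12, limma adjusted p = 3.93e-06). At 4 hours after PHx, the same time after surgery as in sham livers, the log2 fold changes over sham were 0.01 for Arntl, -0.28 for Cry1 and -0.71 for Per3, of which only Per3 passed. Between the 2 times after PHx, Arntl was higher at 12 h than at 4 h by 1.65 and Cry1 by 1.46 (limma adjusted p = 2.41e-07 and 1.54e-07), whereas Per3 differed by -0.15 and did not pass (limma adjusted p = 0.439).

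**Figure D1:**
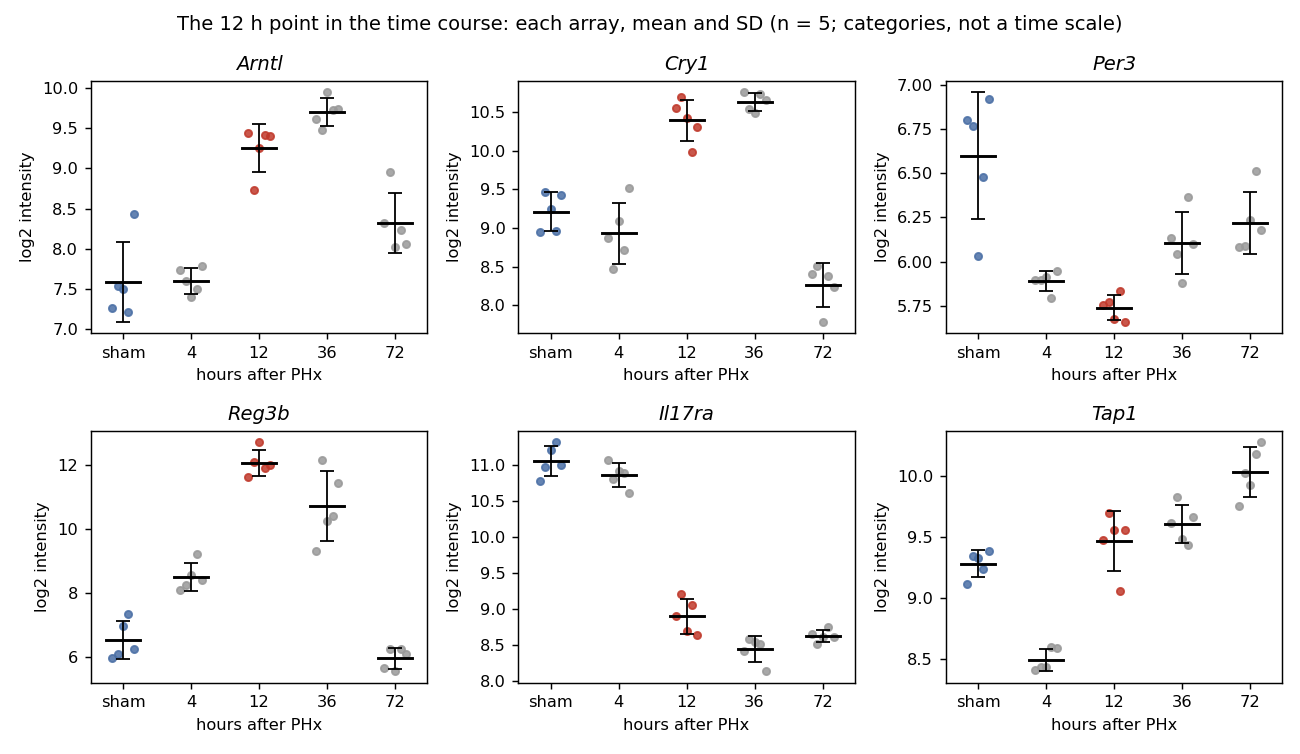
Log2 intensity of 6 genes on each array, in sham livers and at the 4 times studied after PHx, with times as categories. Points are arrays, with the 12 h arrays in red and sham arrays in blue, and the line and bar are the mean and SD (n = 5). Arntl and Cry1 did not pass against sham at 4 h and were above sham at 12 h, Reg3b was highest at 12 h, and Il17ra was near its sham level at 4 h and low at 12 h.

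Of the 3 clock promoters, that of Cry1 held the E-box CACGTG, the site of BMAL1 and its partner CLOCK, which 6.02% of all RefSeq mouse promoters hold within 250 bases before the start. The 150 bases before its start site are shown with the E-box, 60 bases before the start, in capitals.
Cry1 (chr10:85185055-85185204, minus strand, GRCm38.p6): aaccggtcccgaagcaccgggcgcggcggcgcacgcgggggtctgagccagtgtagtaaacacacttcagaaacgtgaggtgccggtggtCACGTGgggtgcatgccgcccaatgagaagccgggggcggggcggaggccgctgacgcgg
In the promoters of Arntl and Per3 these letters were not found in this window.

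**Figure D2:**
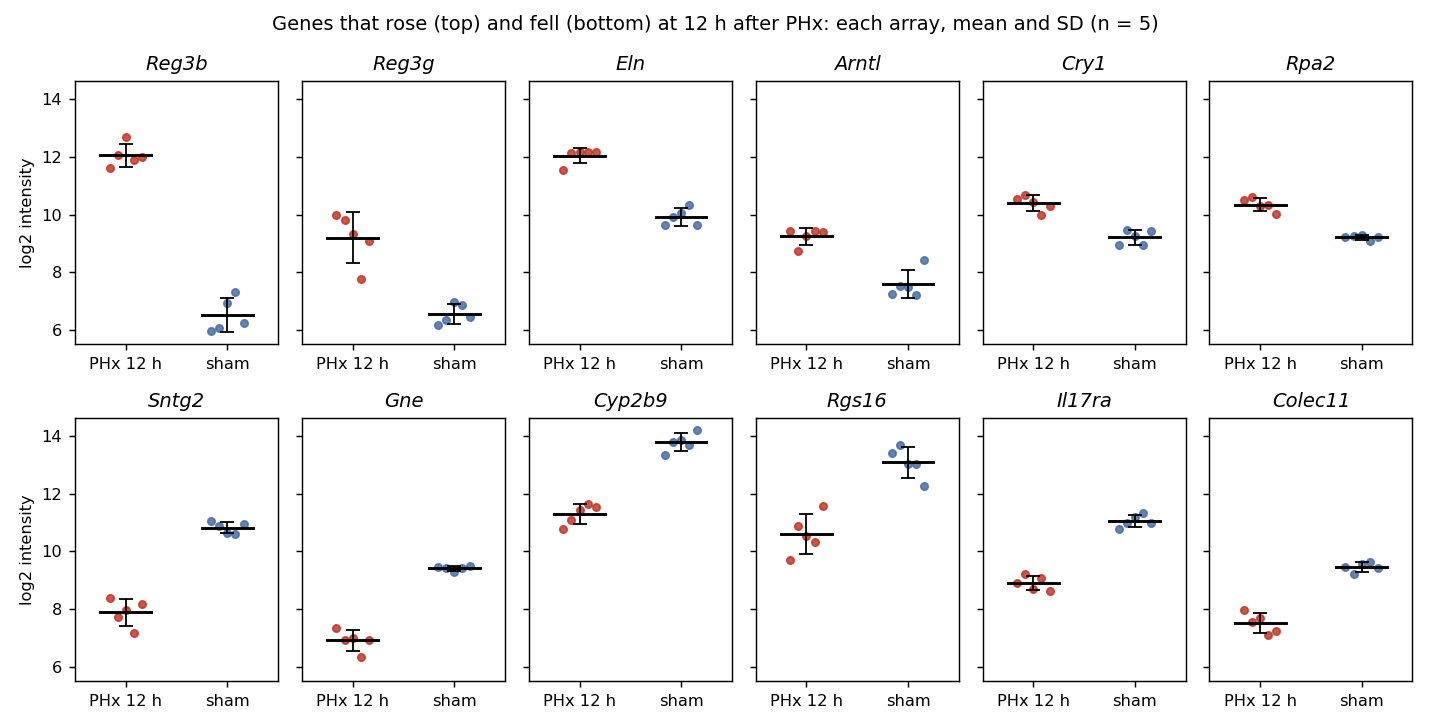
Log2 intensity of 12 named genes on each of the 5 PHx 12 h arrays (left, red) and 5 sham arrays (right, blue), with the mean and SD. The upper row shows genes that rose and the lower row genes that fell, and in each panel the 2 groups do not overlap.

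Outside these groups, elastin had the largest rise. Eln encodes the core protein of elastic fibres, and its log2 intensity was 11.56, 12.15, 12.18, 12.17 and 12.18 in PHx 12 h livers, against 9.62, 9.93, 10.04, 10.34 and 9.63 in sham livers. PHx 12 h livers 2 to 5 lay within a narrow band and liver 1 below it, and all were above the sham livers. The log2 fold change was 2.13 (SE 0.22, limma adjusted p = 4.52e-08), and over livers at 4 h it was 2.38 (limma adjusted p = 7.42e-09). Hsp90ab1, the constitutive cytosolic chaperone HSP90 beta, had log2 intensities of 14.62, 14.95, 14.87, 15.19 and 15.24 in PHx 12 h livers, against 13.999, 13.97, 13.90, 13.77 and 14.24 in sham livers. It was higher in each PHx 12 h liver than in any sham liver, by 0.997 on average (SE 0.12, limma adjusted p = 2.51e-07). Among the 15 largest rises without overlap were also the nucleoporin Nup43 with a log2 fold change of 0.88, the deSUMOylating isopeptidase gene Desi2 with 0.89 and the secretory carrier membrane protein gene Scamp3 with 0.77 (limma adjusted p of 1.75e-06 or lower). They also held Rpa2, Pold1, Cdc25a, Pold3 and Cdk4, which act in the cell cycle and in DNA synthesis and are described with those lists.

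The genes of the G1 to S switch had mostly risen by 12 h. Of 9 measured genes 6 rose, 2 fell and 1 did not pass. Among all named genes 10.8% rose, but in the study's table clusters 2 and 3 held no rise. In its cluster 1, 185 of 431 probes rose. The 10.8% thus depends on which clusters carry names and is no measure of enrichment. Cdk4, the kinase that cyclin D activates in G1, had log2 intensities of 12.56, 13.22, 12.72, 12.97 and 12.80 in PHx 12 h livers, against 12.14, 11.95, 12.13, 11.98 and 11.99 in sham livers. All PHx 12 h livers were above all sham livers, and the log2 fold change was 0.81 (SE 0.10, limma adjusted p = 3.97e-07). Cdc25a, the phosphatase that activates CDK2, had log2 intensities of 8.72, 8.52, 8.54, 8.72 and 8.41 in PHx 12 h livers, against 7.83, 7.63, 7.63, 7.55 and 7.67 in sham livers. It rose by 0.92 (SE 0.10, limma adjusted p = 1.44e-07) without overlap, and a second probe of the gene gave 0.76. The kinase gene Cdk2 rose by 0.77, the pocket protein gene Rbl1 by 0.77, Skp2, which targets p27 for degradation, by 0.51, and Cdk6 by 0.36 (limma adjusted p between 2.58e-06 and 0.0135).

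Cdkn1b, which encodes the CDK inhibitor p27 itself, had log2 intensities of 9.07, 8.21, 8.85, 8.39 and 8.68 in PHx 12 h livers, against 9.91, 9.55, 9.58, 9.49 and 9.50 in sham livers. It was lower in every PHx 12 h liver and fell by 0.97 (SE 0.15, limma adjusted p = 1.59e-05). E2f1, the transcription factor that drives S phase genes, was at 6.35 ± 0.29 in PHx 12 h livers and 6.83 ± 0.19 in sham livers (SD, n = 5 each). The log2 fold change was -0.49 (limma adjusted p = 0.0253). This call was lost without PHx 12 h liver 3 or 4 or sham liver 1, 2 or 5 (limma adjusted p = 0.0568 to 0.0838). It was also lost with an offset of 50 before log2 (limma adjusted p = 0.0974) and in the methods' t-test (adjusted p = 0.0551). The probe was dim, with a PHx 12 h mean little above 6.09, under which the dimmest 30% of probes lay. Ccne2, which encodes cyclin E2, had a log2 fold change of -0.25 and did not pass (limma adjusted p = 0.421).

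Of 20 measured genes of DNA synthesis 10 rose, 1 fell and 9 did not pass. In cluster 1 of the study's table, chosen on the same arrays, 185 of 431 probes rose, and 8 of 285 in the part of cluster 4 at hand. The count is therefore no measure of enrichment, which also holds for the licensing and repair genes below. Rpa2, a subunit of the complex that coats single-stranded DNA, had log2 intensities of 10.51, 10.60, 10.29, 10.33 and 10.02 in PHx 12 h livers, against 9.24, 9.27, 9.30, 9.08 and 9.21 in sham livers. The groups were apart, with a log2 fold change of 1.13 (SE 0.12, limma adjusted p = 5.19e-08). Pold1, the catalytic subunit of DNA polymerase delta, had log2 intensities of 7.49, 7.74, 7.57, 7.58 and 7.76 in PHx 12 h livers, against 6.70, 6.88, 6.74, 6.52 and 6.70 in sham livers. It rose by 0.92, and its partner subunit Pold3 rose by 0.84 (limma adjusted p = 1.73e-07 and 1.07e-06). Smaller rises were found for the polymerase epsilon subunit Pole2 (0.67), the primase Prim1 (0.68), the nuclease and helicase Dna2 (0.48), the ribonucleotide reductase subunit Rrm1 (0.47), the sliding clamp Pcna (0.44), the ligase Lig1 (0.40) and the clamp loader subunit Rfc2 (0.33), with a limma adjusted p of 0.0139 or lower. Pole, the catalytic subunit of polymerase epsilon, had a log2 fold change of -0.46 (limma adjusted p = 0.0417). This call was lost without any 1 of the 10 arrays other than PHx 12 h liver 1 and sham liver 4 (limma adjusted p = 0.053 to 0.121). It was also lost with an offset of 50 before log2 and under arrayWeights (limma adjusted p = 0.122 and 0.15). The probe was dim, with a mean of 6.35 in PHx 12 h livers and 6.80 in sham livers. Values that did not pass were -0.35 for the topoisomerase Top2a, -0.33 for the flap nuclease Fen1 and -0.06 for thymidylate synthase, Tyms.

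Among 15 genes of origin licensing and firing 5 rose, 1 fell and 9 did not pass. Without PHx 12 h liver 1 or 2 or sham liver 2 or 4, 3 rose, and 2 fell without PHx 12 h liver 1 or 2. Mcm2, a subunit of the replicative helicase, had log2 intensities of 8.04, 7.92, 7.87, 7.86 and 7.96 in PHx 12 h livers, against 7.29, 7.21, 7.35, 7.08 and 7.50 in sham livers. It was higher in all PHx 12 h livers, with a log2 fold change of 0.64 (SE 0.12, limma adjusted p = 0.00022). Its partners Mcm3 and Mcm7 rose by 0.43 and 0.34 (limma adjusted p = 0.00418 and 0.0422), while Mcm4, Mcm5 and Mcm6 had log2 fold changes of -0.34, 0.12 and -0.47 and did not pass (limma adjusted p between 0.0563 and 0.653). The licensing factor Cdt1 rose by 0.49 and the GINS subunit Gins3 by 0.53 (limma adjusted p = 0.0275 and 6.76e-05). Another GINS subunit went the other way. Gins1 had log2 intensities of 8.46, 8.07, 8.14, 8.02 and 8.19 in PHx 12 h livers, against 9.45, 8.94, 9.07, 9.12 and 9.29 in sham livers. It was lower in each PHx 12 h liver, fell by 0.99 (SE 0.11, limma adjusted p = 1.6e-07), and a second probe of the gene gave -1.23. The E2F element TTTCCCGC lay in the promoters of Mcm7, Cdc6 and Gins3, 3 of the 12 licensing genes with a promoter in RefSeq. It lay in none of 18 of DNA synthesis, against 1.03% of all genes with a promoter, on either strand. A second form of the element, TTTGGCGC, lay in those of Mcm5, Mcm6 and, among the genes of DNA synthesis, Pola1, against 0.485% of all genes. A match describes the sequence and is no evidence of binding. Cdc6, which loads the helicase, had a log2 fold change of -0.05 (limma adjusted p = 0.82).

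No gene of mitosis passed as higher in the fit of all arrays. Of 40 measured genes 2 fell, Pttg1, which encodes securin, by 0.67 and the kinase gene Nek2 by 0.42 (limma adjusted p = 0.0222 and 0.0109), and 38 did not pass. Without PHx 12 h liver 3 or 4 or sham liver 1 or 5, Pttg1 did not pass either (limma adjusted p = 0.0548 to 0.0636). The count of falls was 5 without PHx 12 h liver 2, and 1 gene rose without sham liver 5. A fit of only the 10 arrays called 6 lower and 1 higher. At an unadjusted p under 0.05 in the fit of all 25 arrays, 3 were higher and 5 lower. The methods' t-test with Benjamini-Hochberg adjustment called 1 higher and 3 lower. The list was dim, with a mean log2 intensity of 6.46 to 6.97 over the PHx 12 h arrays and 6.57 to 7.17 over the sham arrays. The dimmest 30% of probes lay under 6.09. Genes that did not pass are therefore not shown to be unchanged. The kinase Cdk1 was at 7.39 ± 0.44 in PHx 12 h livers and 7.45 ± 0.65 in sham livers and cyclin A2, Ccna2, at 7.06 ± 0.40 in PHx 12 h livers and 7.12 ± 0.54 in sham livers (SD, n = 5 each), so the spread between livers of 1 group was larger than the difference between groups. In DNA repair and checkpoint control 6 of 32 genes rose, 1 fell, Rad17, and 25 did not pass. The call of Rad17 was lost without PHx 12 h liver 1, 2, 4 or 5 or sham liver 3, 4 or 5 (limma adjusted p = 0.0576 to 0.127). Those that rose were the recombination gene Rad51c (0.78), the mismatch repair gene Msh6 (0.72), Rad9a of the checkpoint clamp (0.54), Topbp1 (0.51), Xrcc1 of single-strand break repair (0.43) and Fancm (0.33), with a limma adjusted p of 0.0049 or lower. Rad51c overlapped between the groups, since its log2 intensity was 8.60, 8.55, 8.37, 7.37 and 8.36 in PHx 12 h livers, against 7.59, 7.51, 7.53, 7.19 and 7.54 in sham livers. PHx 12 h liver 4 lay within the range of the sham livers, and sham liver 4 was the lowest of its group.

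**Figure D3:**
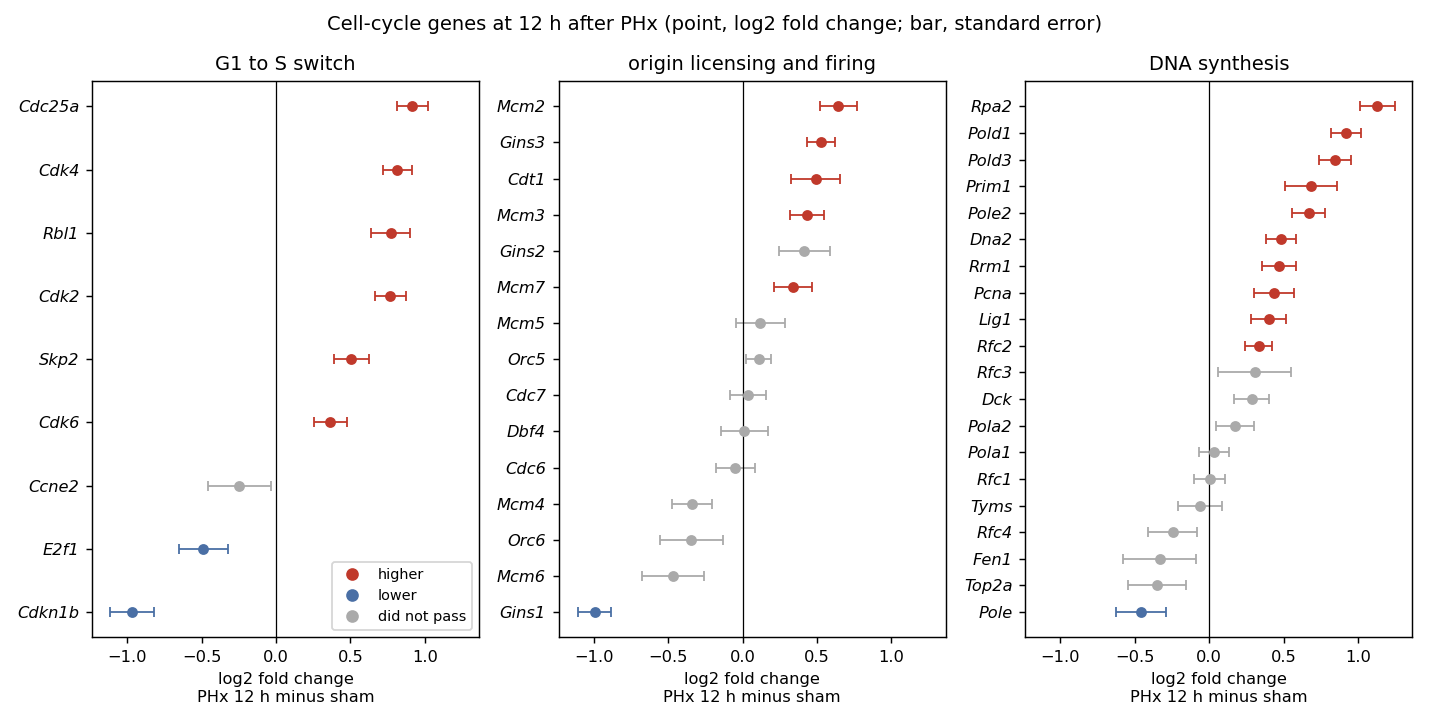
Log2 fold change of PHx 12 h over sham (x axis, with the standard error as a bar) for each measured gene of the G1 to S switch, of origin licensing and firing, and of DNA synthesis. Red points rose and blue points fell at an adjusted p under 0.05 in limma, and grey points did not pass. Risen genes made up 6 of 9, 5 of 15 and 10 of 20 genes, against 10.8% of all named genes and 185 of 431 probes of cluster 1.

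The largest falls among the named genes were of mixed function. Sntg2, which encodes gamma-2 syntrophin, an adaptor protein at the cell membrane, had log2 intensities of 8.40, 7.73, 7.95, 7.18 and 8.17 in PHx 12 h livers, against 11.06, 10.88, 10.64, 10.61 and 10.93 in sham livers. The groups were more than 2 log2 units apart, and the log2 fold change was -2.94 (SE 0.15, limma adjusted p = 4.44e-13), a 7.68-fold fall. Gne, the enzyme that starts sialic acid synthesis, had log2 intensities of 7.35, 6.93, 7.002, 6.34 and 6.92 in PHx 12 h livers, against 9.47, 9.42, 9.28, 9.42 and 9.49 in sham livers. It fell by 2.51 (SE 0.18, limma adjusted p = 1.34e-10) without overlap. Rgs16, a regulator of G protein signalling whose hepatic level follows feeding, had log2 intensities of 9.71, 10.89, 10.52, 10.33 and 11.59 in PHx 12 h livers, against 13.42, 13.68, 13.02, 13.03 and 12.27 in sham livers. It varied more between livers of 1 group than Sntg2 and Gne did, the groups did not overlap, and it fell by 2.47 (SE 0.36, limma adjusted p = 6.29e-06).

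Bnip3, a receptor for the autophagic removal of mitochondria, had log2 intensities of 9.28, 9.06, 8.94, 8.67 and 9.25 in PHx 12 h livers, against 11.51, 11.06, 11.18, 11.28 and 11.30 in sham livers. The groups were far apart relative to their spread, and Bnip3 fell by 2.23 (SE 0.11, limma adjusted p = 2.88e-13). The asparaginase gene Aspg fell by 2.23, the kelch protein gene Klhl24 by 2.19, the lamin tail domain gene Lmntd1 by 2.19, Mtss1, which binds actin and membranes, by 2.15, and Crebrf, a regulator of the transcription factor CREB3, by 2.12 (limma adjusted p of 1.01e-05 or lower).

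Genes of drug and steroid metabolism fell almost as a whole list. Of 13 measured genes 12 fell and 1 rose, with a median log2 fold change of -1.38 against -0.30 over all named genes. Most of these genes belong to clusters 2 and 3 of the study's table, chosen on the same arrays. There, 512 of 562 and 571 of 720 probes fell and none rose, so the count alone does not set the list apart. The cytochrome P450 gene Cyp2b9 had log2 intensities of 10.77, 11.08, 11.43, 11.63 and 11.54 in PHx 12 h livers, against 13.35, 13.78, 13.88, 13.70 and 14.22 in sham livers. Every PHx 12 h liver was below every sham liver, and the log2 fold change was -2.49 (SE 0.24, limma adjusted p = 1.38e-08). Its relative Cyp2b19 fell by 2.41, Cyp2c38 by 2.15 and Cyp2j9 by 1.38 (limma adjusted p of 6.23e-08 or lower). Cyp2c50 was within 0.2 of the ceiling in all 5 sham livers, so its fall was at least 3.14-fold (limma adjusted p = 2.96e-10). P450 genes of 1 subfamily have similar sequences, and how far their probes read each other's RNA was not tested.

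Among the other genes of the list, Mtarc2, a mitochondrial enzyme that reduces N-hydroxylated compounds, fell by 2.33, the sulphotransferase gene Sult1d1 by 1.70, Hsd11b1, which regenerates active glucocorticoid, by 1.08, the quinone reductase gene Nqo1 by 1.06 and the steroid hydroxylase gene Cyp17a1 by 0.99 (limma adjusted p of 0.000413 or lower). The exception was the alcohol dehydrogenase gene Adh7, with log2 intensities of 12.93, 13.11, 13.001, 12.97 and 13.17 in PHx 12 h livers, against 12.41, 12.49, 12.44, 12.48 and 12.12 in sham livers. It was higher in each PHx 12 h liver, by 0.65 on average (SE 0.10, limma adjusted p = 1.32e-05). Between the 2 times after PHx, 10 of the 13 genes were lower and 1 was higher at 12 h than at 4 h, against 13.2% and 14% of all probes. The named genes had been chosen for change on these arrays, and their own share was not counted for these 2 times.

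Of 16 genes of fatty acid oxidation and peroxisomes 12 fell and 4 did not pass, with a median log2 fold change of -0.62. Over all named genes 49.9% fell. Most of the 16 belong to clusters 2 and 3, where most probes fell and none rose. Cpt1a, the gate of fatty acids into mitochondria, fell by 0.70, and Ppara, the nuclear receptor that drives these genes, by 0.66 (limma adjusted p = 3.66e-05 and 0.00316). The peroxisome assembly genes Pex26 and Pex2 fell by 1.196 and 0.80, the peroxisomal transporter gene Abcd2 by 1.13 and the phospholipase gene Pnpla8 by 0.77 (limma adjusted p of 0.000952 or lower). Among 12 genes of lipid synthesis and storage 4 fell and 1 rose, and 2 fell without PHx 12 h liver 4 or sham liver 1 or 2. Chpt1, which makes phosphatidylcholine, fell by 1.62 (limma adjusted p = 7.34e-06), while the fatty acid binding protein gene Fabp2 rose by 0.32 (limma adjusted p = 0.0324), a call that was lost without PHx 12 h liver 3 or 5 or sham liver 1, 2 or 3 (limma adjusted p = 0.0512 to 0.125).

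In amino acid and sugar metabolism of hepatocytes 9 of 16 genes fell and 7 did not pass, with a median of -0.67. The count of falls is near the 49.9% over all named genes. Aldh6a1, an enzyme of valine breakdown, had log2 intensities of 8.51, 8.38, 8.68, 8.56 and 8.57 in PHx 12 h livers, against 10.85, 10.72, 10.69, 10.81 and 11.22 in sham livers. The groups were more than 2 log2 units apart, with a log2 fold change of -2.32 (SE 0.30, limma adjusted p = 1.15e-06). Pfkfb1, the hepatic enzyme that sets the level of fructose 2,6-bisphosphate and with it the balance of glycolysis and gluconeogenesis, had log2 intensities of 10.85, 9.93, 10.25, 8.91 and 10.12 in PHx 12 h livers, against 12.41, 12.23, 11.85, 11.72 and 12.04 in sham livers. It fell by 2.04 (SE 0.23, limma adjusted p = 1.85e-07), with PHx 12 h liver 4 the lowest. Pcca, a subunit of propionyl-CoA carboxylase, fell by 1.34, the succinate dehydrogenase subunit gene Sdhb by 0.91 and the arginase gene Arg1 of the urea cycle by 0.75 (limma adjusted p of 0.00201 or lower).

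Of 9 genes for secreted proteins of hepatocytes 6 fell and 3 did not pass, with a median of -1.07. Over all named genes 49.9% fell, and most of the 9 belong to clusters 2 and 3. The 6 include Leap2, described above, and the clotting inhibitor gene Tfpi, which is also counted among the endothelial markers. Colec11, a collectin that recognises microbial sugars, had log2 intensities of 7.98, 7.56, 7.70, 7.09 and 7.22 in PHx 12 h livers, against 9.45, 9.20, 9.57, 9.65 and 9.41 in sham livers. It was lower in all PHx 12 h livers and fell by 1.94 (SE 0.16, limma adjusted p = 1.04e-09). Enpp2, which encodes the lysophospholipase autotaxin, had log2 intensities of 10.36, 10.38, 10.52, 11.21 and 10.01 in PHx 12 h livers, against 11.69, 11.81, 11.91, 11.66 and 12.06 in sham livers. PHx 12 h liver 4 came nearest to the sham livers, and Enpp2 fell by 1.33 (SE 0.16, limma adjusted p = 4.72e-07). Clotting factor IX, F9, fell by 1.29 and butyrylcholinesterase, Bche, by 1.12 (limma adjusted p = 4.45e-05 and 2.66e-05).

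Of 14 measured cell surface receptors 10 fell and 4 did not pass, against 49.9% lower over all named genes. Of the 9 that bind growth factors, cytokines or R-spondin 7 fell, and of the 5 others 3 fell, the G protein coupled receptors Calcrl, Tshr and Adra2b. Without PHx 12 h liver 4, Icos, a costimulator of T cells, rose. Il17ra, the receptor of the cytokine interleukin-17A, had log2 intensities of 8.91, 9.21, 8.70, 9.06 and 8.63 in PHx 12 h livers, against 10.78, 10.97, 11.21, 11.31 and 10.995 in sham livers. The groups were well apart, and the gene fell by 2.15 (SE 0.11, limma adjusted p = 7.08e-13). At 4 hours its log2 fold change over sham was -0.20 and did not pass, and the difference between 12 h and 4 h was -1.95 (limma adjusted p = 3.36e-12). Met, the receptor of hepatocyte growth factor and a main driver of regeneration, was at 7.41 ± 0.35 in PHx 12 h livers and 8.47 ± 0.28 in sham livers (SD, n = 5 each), and fell by 1.07 (limma adjusted p = 1.69e-06). Erbb3 fell by 1.09 and the TGF-beta co-receptor Tgfbr3 by 1.06 (limma adjusted p = 8.09e-07 and 1.17e-07), while Egfr had a log2 fold change of -0.33 and did not pass (limma adjusted p = 0.0577).

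Of 11 transcription factors of hepatocytes 9 fell and 2 did not pass. Over all named genes 49.9% fell, and most of the 11 belong to clusters 2 and 3. Maf fell most, by 1.44, followed by Nfia with 1.26, Tcf7l2, an effector of Wnt signalling, with 0.70 and the orphan nuclear receptor Nr2c2 with 0.68 (limma adjusted p of 0.00015 or lower). Among 12 chemokine and interferon response genes 9 fell and 3 did not pass, against 49.9% lower over all named genes. The methods' t-test called 5 lower, and 1 gene rose without PHx 12 h liver 4. Cxcl1, a chemokine that attracts neutrophils, had log2 intensities of 11.91, 11.59, 11.98, 12.20 and 11.39 in PHx 12 h livers, against 13.77, 13.65, 13.67, 14.24 and 13.50 in sham livers. It was lower in each PHx 12 h liver and fell by 1.95 (SE 0.38, limma adjusted p = 0.000284). The interferon regulatory factor Irf2 fell by 0.90, and the ADP-ribosyltransferase genes Parp9 and Parp14, both induced by interferon, by 0.96 and 0.83 (limma adjusted p of 2.13e-06 or lower). Tap1, the peptide transporter of antigen presentation, was at 9.47 ± 0.24 in PHx 12 h livers and 9.28 ± 0.11 in sham livers (SD, n = 5 each) and did not pass. It was higher at 12 h than at 4 h by 0.98 (limma adjusted p = 7.57e-08).

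**Figure D4:**
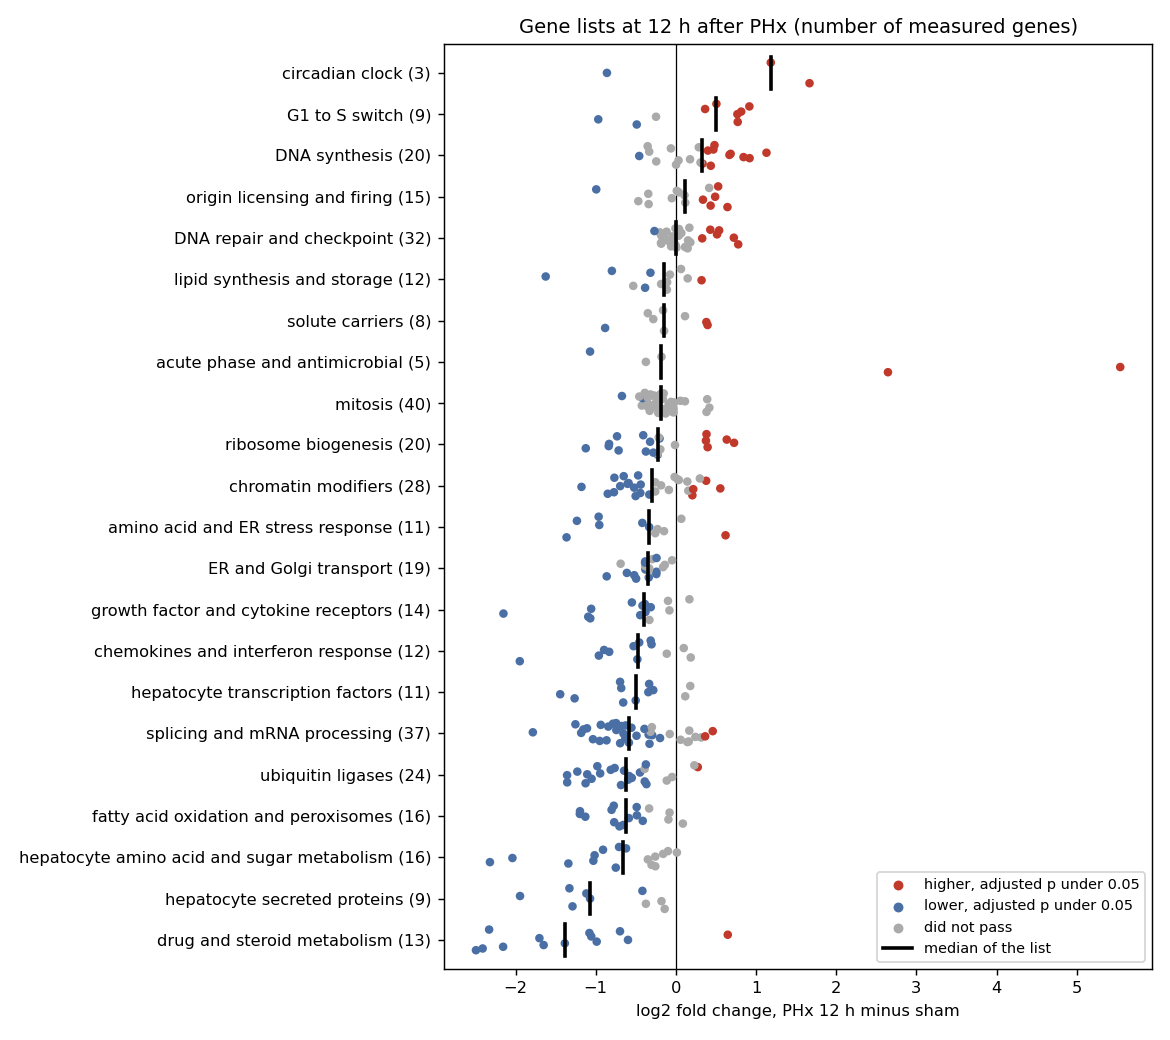
Log2 fold change of PHx 12 h over sham (x axis) for each measured gene of 22 lists, ordered by the median of the list (black bar). Red points rose and blue points fell at an adjusted p under 0.05 in limma, and grey points did not pass. The median was lowest for drug and steroid metabolism, at -1.38, and highest for the 3 clock genes, at 1.18.

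Of 37 genes of splicing and mRNA processing 26 fell, 2 rose and 9 did not pass, with a median log2 fold change of -0.59. Over all named genes 49.9% fell and 10.8% rose. Most of the 37 belong to clusters 2 and 3 of the study's table, chosen on the same arrays. There, 512 of 562 and 571 of 720 probes fell and none rose, so the count alone does not set the list apart. Rsrc2, which encodes a protein rich in arginine and serine, had log2 intensities of 7.04, 7.04, 7.13, 6.79 and 7.19 in PHx 12 h livers, against 8.74, 8.49, 8.97, 8.996 and 8.92 in sham livers. It fell by 1.78 (SE 0.21, limma adjusted p = 2.58e-07) without overlap. The RNA helicase gene Ddx17 fell by 1.15, Cwf19l1, a relative of a yeast splicing factor, by 0.79 and Thoc2, of the complex that couples transcription to mRNA export, by 0.94 (limma adjusted p of 1.08e-07 or lower). The paraspeckle protein gene Nono rose by 0.46 and Lsm8 of the U6 particle by 0.37 (limma adjusted p = 1.04e-06 and 0.0119), the second of which did not pass when only the 10 arrays were fitted or in the methods' t-test.

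Ribosome biogenesis went both ways, with 5 of 20 genes higher and 11 lower, against 7 lower without PHx 12 h liver 3 or sham liver 3. Over all named genes 10.8% rose and 49.9% fell. The RNase P subunit gene Rpp30 rose by 0.73, Exosc8 of the RNA exosome by 0.63 and Tcof1, which encodes the nucleolar protein treacle, by 0.40. Gtpbp4 fell by 1.12, Utp14a by 0.84 and Dnttip2 by 0.83 (limma adjusted p of 0.0015 or lower for these 6). A second, dimmer probe of Exosc8 gave 0.25 and did not pass.

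Of 28 chromatin modifiers 14 fell and 4 rose, near the 49.9% and 10.8% of all named genes. Only 2 rose without PHx 12 h liver 4 or 5 or sham liver 3 or 4, where Setdb1 and Eed did not pass. The histone demethylase gene Kdm3b fell by 0.77, the bromodomain gene Brd3 by 0.69 and the deacylase gene Sirt7 by 1.18 (limma adjusted p of 1.31e-05 or lower), while the histone methyltransferase gene Nsd2 rose by 0.55 (limma adjusted p = 0.00077). Ubiquitin ligases and their adaptors were lower in 19 of 24 cases and higher in 1, Rnf168, with a median of -0.62. Most of the 24 belong to clusters 2 and 3 of the study's table, where 512 of 562 and 571 of 720 probes fell. The count alone therefore does not set this list apart. None was higher without PHx 12 h liver 5 or sham liver 4, and 2 were higher without sham liver 1. Itch fell by 1.13, the F-box genes Fbxo31 and Fbxl20 by 1.36 and 1.23, and the scaffold gene Cul3 by 1.05 (limma adjusted p of 6.26e-07 or lower). Of 8 solute carriers 2 rose, 1 fell (3 without PHx 12 h liver 1, and 2 without PHx 12 h liver 5 or sham liver 5) and 5 did not pass, with a median log2 fold change of -0.15. In transport between ER and Golgi 11 of 19 genes fell and 8 did not pass, which is also near the share of all named genes. The translocation gene Sec63 fell most, by 0.86 (limma adjusted p = 1.99e-08).

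Of 11 genes of the amino acid and ER stress response 6 fell, 1 rose and 4 did not pass. These counts are near the 49.9% lower and 10.8% higher over all named genes. Chac1, which degrades glutathione and is a target of ATF4, had log2 intensities of 8.46, 8.40, 8.55, 7.81 and 8.41 in PHx 12 h livers, against 9.68, 9.64, 9.86, 9.80 and 9.48 in sham livers. PHx 12 h liver 4 was the lowest of all, the groups did not overlap, and Chac1 fell by 1.36 (SE 0.14, limma adjusted p = 4.37e-08). The ER stress sensor Atf6 fell by 1.23, and Eprs, the tRNA synthetase for glutamate and proline, by 0.95 (limma adjusted p = 2.95e-08 and 1.08e-09). Mthfd2, the mitochondrial enzyme of folate metabolism, rose by 0.62 (limma adjusted p = 0.00725). The promoter of Chac1 is shown because it held a match to TGATGNAAN, a form of the element that ATF4 and C/EBP proteins share, 194 bases before the start site. The capitals mark the match, which runs on the other strand.
Chac1 (chr2:119350992-119351241, plus strand, GRCm38.p6): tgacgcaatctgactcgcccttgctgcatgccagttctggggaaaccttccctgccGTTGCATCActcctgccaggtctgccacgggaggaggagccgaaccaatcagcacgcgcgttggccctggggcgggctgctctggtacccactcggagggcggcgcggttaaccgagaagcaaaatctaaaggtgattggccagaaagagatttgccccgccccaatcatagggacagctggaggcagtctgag
This motif was found in 2 of the 9 genes of the list with a promoter in RefSeq, Chac1 and Pck2, and in 3.89% of all genes with a promoter. A match is no evidence of binding. Pck2, which makes phosphoenolpyruvate in mitochondria, had a log2 fold change of -0.26 and did not pass (limma adjusted p = 0.0707).

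Since whole liver was measured, fewer cells of a type and less RNA per cell cannot be told apart. Some markers of each cell type were lower at 12 h, as were 49.9% of all named genes, so these counts alone do not set a cell type apart. Of 7 hepatocyte markers 4 fell, near the 49.9% of all named genes. The mean of the log2 intensities of the 7 was 12.01 to 12.14 over the PHx 12 h arrays and 12.87 to 12.95 over the sham arrays. F2, 1 of the 7, was near the ceiling in all 5 sham livers, which limits what its change could show. All 5 endothelial markers fell, among them Clec1b by 0.70 and Clec14a by 0.72 (limma adjusted p = 4.54e-06 and 0.00118). The mean of the 5 was 7.38 to 7.65 over the PHx 12 h arrays and 7.92 to 8.23 over the sham arrays. Only 2 of the 5 were lower without overlap between the groups. Tfpi did not pass in the methods' t-test (adjusted p = 0.0604). Of 5 markers of stellate cells and fibroblasts 3 fell, Col14a1 by 0.93 and Abi3bp by 0.90 the most, and 1 rose, Eln. Of 6 leukocyte markers 2 fell, Spic, a transcription factor of red pulp macrophages and Kupffer cells, by 0.73 and the inflammasome gene Nlrp3 by 0.72 (limma adjusted p = 7.29e-06 and 6.29e-05), and 4 did not pass. Without PHx 12 h liver 4, Icos rose. The 1 marker of cholangiocytes, Anxa4, fell by 0.53 (limma adjusted p = 0.000468). The part of these cell types in the falls of the gene lists was not tested.

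Of the 224 putative lncRNA probes in the rows at hand, 168 were lower and 10 higher. These probes had been chosen for change on the same arrays, and most of the rows belong to clusters 1 to 3, so the balance describes these rows and not the lncRNAs of the array. The probe of AK145182 fell most, with log2 intensities of 7.86, 6.51, 7.33, 6.90 and 7.72 in PHx 12 h livers, against 9.48, 9.68, 8.79, 9.26 and 9.88 in sham livers. The groups did not overlap, and the log2 fold change was -2.15 (SE 0.24, limma adjusted p = 1.09e-07). AK011144 fell by 2.04, C730029A08Rik by 1.94, AK044071 by 1.92, 4930502E09Rik by 1.79 and 1700060L04Rik by 1.76 (limma adjusted p of 3.35e-05 or lower).

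Among the rises 5730408K05Rik led, with log2 intensities of 9.97, 10.69, 10.17, 10.79 and 10.22 in PHx 12 h livers, against 9.17, 9.05, 8.95, 9.34 and 9.44 in sham livers. It was above the sham livers in every PHx 12 h liver, by 1.18 on average (SE 0.15, limma adjusted p = 1.05e-06). Snhg14, a host transcript of small nucleolar RNAs, rose by 0.70 and the probe of NM_028387 by 0.48 (limma adjusted p = 9.97e-05 and 0.000185). LncPHx2 (2810408I11Rik), the lncRNA that the study followed up, had log2 intensities of 9.32, 8.15, 8.80, 7.51 and 8.57 in PHx 12 h livers, against 8.68, 8.45, 8.13, 8.56 and 8.71 in sham livers. The PHx 12 h livers lay on both sides of the sham livers, and the log2 fold change was -0.04 (SE 0.24, limma adjusted p = 0.937). It was between -0.25 and 0.20 when 1 array at a time was left out.

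A direct comparison of PHx 12 h with PHx 4 h separated genes whose levels had moved on between these times. Over all probes, 14% were higher and 13.2% lower at 12 h. The named genes, which had been chosen for change on these arrays, were not counted for this comparison. The counts below therefore do not show whether a list differs from the named genes. Of the 20 genes of DNA synthesis 7 were higher at 12 h than at 4 h, and of the 9 genes of the G1 to S switch 6 were higher and 1 lower. Of the 9 secreted proteins 4 were lower and 1 higher, and of the 16 genes of amino acid and sugar metabolism 8 were lower and 1 higher. The higher one among the secreted proteins was Crp, with a difference of 0.56 (limma adjusted p = 0.00107). Several genes with little change at 4 h were low at 12 h. Cyp2j9 had a log2 fold change over sham of 0.11 at 4 h and -1.38 at 12 h, Enpp2 of 0.10 and -1.33, and the fibril-associated collagen gene Col14a1 of 0.05 and -0.93, with differences between the times of -1.49, -1.43 and -0.98 (limma adjusted p of 1.38e-07 or lower). In contrast, Nfia was 1.28 lower at 4 h and 1.26 lower at 12 h, and Erbb3 1.08 and 1.09 lower, with differences between the times of 0.01 and -0.01 that did not pass (limma adjusted p = 0.98 and 0.964).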

How the data were processed

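RNA from 25 mouse livers, 5 per group by the labels, was measured on single-colour arrays, and 10 arrays entered the comparison of PHx 12 h with sham. The methods name normalization with the vsn package, but the deposited table holds linear intensities that the authors had already brought to 1 scale, by a step that the sources used here do not describe. Log2 was taken of these intensities with no further normalization, and 2 blank probes of 35981 were removed.

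Group means were estimated in 1 model of the 25 arrays by limma 3.58.1 in R 4.3.3 (lmFit, eBayes), with Benjamini-Hochberg adjustment over 35979 probes and a threshold of 0.05. A rise or fall means that a probe passed it. Precision is limited by the 5 arrays per group. Tables were handled with pandas 2.3.3 in Python 3.11.15. The fit was tested on simulated data.

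Probes were named from the rows at hand of the study's table of clustered probes, 1943 of them, and symbols were updated to RefSeq (GRCm38.p6). Further rows of that table were not used here. A gene was represented by its brightest probe. Genes were named by rule: the 15 largest rises and falls without overlap between the groups, up to 4 members of each list with the smallest p, members that passed against the direction of most of their list, 6 putative lncRNAs in each direction and LncPHx2. Other list members, such as Tap1, Mcm4 to Mcm6, Nqo1, Ppara, Egfr, Nfia and Pcna, were named after their values were seen. Some genes that the rule names are not reported here. The members and lists were chosen with earlier results of these data known. No column of other samples' values was left unused (0 columns), and the authors' own comparisons were not used. Promoters were searched for short motifs on both strands in the 250 bases before the start site of each RefSeq promoter.

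Alternatives were a fit of only the 10 arrays, quantile normalization, median centring, removal of the dimmest 30% of probes, eBayes with trend and robust settings, arrayWeights, the methods' t-test, the replicate number as a block, normexp background correction, an offset of 50 before log2, the probe with the smallest p per gene, and leaving out each array.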

Additional observations from a re-analysis of the deposited data

Results flagged for a closer look

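In 280 groups of 5 arrays, 1 group per named gene and condition, the gap between an extreme array and its nearest neighbour was set against the range of the group. It exceeded the critical share of 0.71 in 17 groups, 8 of them PHx 12 h, and chance gives about 1 in 20. The gap share was 0.963 for Eln, with PHx 12 h liver 1 low, 0.832 for C730029A08Rik and 0.798 for Chac1, both with PHx 12 h liver 4 low, and 0.805 for Rad51c with the same liver low. For Rad51c it was 0.807 in sham livers, with liver 4 low. PHx 12 h liver 4 was high for Sdhb (0.711) and Sparcl1 (0.730). PHx 12 h liver 2 was low for Nlrp3 (0.754) and for Arntl (0.735), for which sham liver 5 was high (0.731). Among the other sham livers, liver 1 was high for Cdkn1b (0.789) and Tcf7l2 (0.842), liver 4 was high for Dnttip2 (0.730) and low for Setdb1 (0.737), liver 5 was high for Stx16 (0.836) and low for Adh7 (0.780), and liver 3 was low for Spic (0.800).

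Of the named genes, 5 passed in opposite directions at the 2 times after PHx, below sham at 4 h and above it at 12 h. The difference between PHx 12 h and PHx 4 h on the log2 scale was 1.51 for Rpa2, 1.37 for Nup43, 1.27 for Cdc25a, 1.19 for Pold3 and 0.69 for Nono, and each was tested directly (limma adjusted p = 4.9e-10, 1.79e-09, 7.41e-10, 5.2e-09 and 1.87e-09).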

How the results depend on the processing

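The number of probes that rose stayed between 4450 (the methods' t-test) and 6467 (median centring), and the number that fell between 4084 (the methods' t-test) and 5789 (normexp background correction), all within 1.5 times the reported 5872 and 5427. Leaving out 1 array gave 5292 to 5880 rises and 4877 to 5414 falls. The function lists together held 48 rises and 166 falls, and 43 to 49 and 151 to 170 when 1 array was left out. With the number 1 to 5 of the labels as a replicate block there were 5735 rises and 5342 falls. For arrays of the 2 groups with the same number, deviations from the group means correlated with -0.144 to 0.211. Only number 4 matched its own number best. With 5 numbers and no reference for such correlations, these values cannot decide whether the numbers pair the livers. Of the 139 named genes and lncRNA probes that passed, 127 did so under every alternative that measured them. The others were E2f1, Eed, Fabp2, Lsm8, Npc1, Nsun2, Pole, Pttg1, Rad17, Rnf168, Setdb1 and Tfpi, for which the cause was not tested. Under the replicate block Npc1, Pole and Rad17 did not pass (limma adjusted p = 0.0533, 0.0536 and 0.0662). Only LncPHx2 (2810408I11Rik), which had not passed, changed sign, with a log2 fold change of 0.089 under arrayWeights and of -0.25 to 0.20 when 1 array was left out, where it was above 0 without PHx 12 h liver 2 (0.046) or 4 (0.20) or sham liver 1 (0.008) or 5 (0.015). Probes near the dimmest intensities rarely passed, with 54 rises and 85 falls among the 3597 dimmest probes and 1156 and 1081 among the 3598 brightest.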

Other observations

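Some further gene groups were formed after the values had been seen and are given as counts without a test. Over all named genes 49.9% fell and 10.8% rose, shares that depend on which clusters carry names. Zinc finger genes, most of which encode DNA-binding proteins of transcriptional repression, were mostly lower. Of 30 measured genes with a Zfp symbol 23 fell and 1 rose, with a median log2 fold change of -0.50. Zfp747 was at 6.93 ± 0.20 in PHx 12 h livers and 8.29 ± 0.15 in sham livers and Zfp639 at 7.61 ± 0.23 in PHx 12 h livers and 8.95 ± 0.16 in sham livers (SD, n = 5 each), with log2 fold changes of -1.36 and -1.34 (limma adjusted p = 4.73e-07 and 8.88e-07). The exception was Zfp930, which rose by 0.39 (limma adjusted p = 0.000727).

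Nucleoporins, the building blocks of the nuclear pore, stood on the other side. Of 6 measured genes 4 rose and none fell. Nup93, a scaffold of the inner ring, rose by 0.73, Nup205 by 0.51 and Nup160, of the outer ring complex that also holds Nup43, by 0.33 (limma adjusted p = 1.35e-05, 0.00144 and 0.00745). Of 10 chaperones and cochaperones 3 rose and 4 fell. The partners of HSP90, Ahsa1 and Stip1, rose by 0.53 and 0.42, while Dnaja3, Dnajb14, Dnajc8 and Dnajc9 fell, all 4 of them cochaperones of HSP70 with a J domain.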
